A study of Mus musculus with 5 samples.

Results

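The cells described here are the *Pi16* and *Clec3b* fibroblasts of the developing mouse penis. A penis cell was counted as one when it had 500 to 6000 detected genes, at most 5% of its UMIs (unique molecular identifiers, each marking 1 captured RNA molecule) in mitochondrial genes, at least 1 UMI of *Pdgfra*, and at least 1 UMI of 3 or more of the 5 markers *Pi16*, *Clec3b*, *Wnt2*, *Ly6a* and *Efemp1*. This selection held 1943 cells, with 703, 688 and 552 in the 3 penis libraries. They were drawn from 10272 kept penis cells with a *Pdgfra* UMI and from 19633 kept penis cells in all. The remaining 8329 cells with a *Pdgfra* UMI, numbering 2879, 3040 and 2410, were the comparison and are called the other *Pdgfra* cells. The selected cells are called *Pi16*/*Clec3b* cells.

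The study looked for ways to disrupt the baculum, the bone of the mouse penis, with little effect on other tissues, and sampled tissues in which bone begins to form. The 3 penis libraries came from male mice at postnatal day 6 (P6), with the prepuce dissected away and the glans kept. A forelimb library and a hindlimb library came from male embryos 15 days after conception (E15). No treatment or engineered allele is named for any of these animals. The labels give the genotype of all 5 libraries as C57BL/6N, while the methods name C57BL/6J. By the methods the 3 P6 males came from 2 litters, so at least 2 of them shared one, and the labels tie no penis library to a mouse or litter. P-values therefore measure the spread between these libraries, which may be partly technical.

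Fibroblasts that carry PI16, a secreted protease inhibitor, lie in the sheath around vessels and in the loose connective tissue and fascia of many organs, and are often described as a reserve from which more specialized fibroblasts arise. Their usual partners are DPP4, CD34, LY6A (Sca-1) and CD55. In the penis at this age, fibroblasts surround the corpora, the urethra and the condensing cartilage and bone of the baculum, and *Pdgfra*, the receptor for platelet-derived growth factor A, marks most of that mesenchyme.

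The selection rests on genes at these positions of mm10 (GRCm38, GENCODE M21). *Pi16* lies at chr17:29317680-29330593 on the plus strand, *Clec3b* (tetranectin) at chr9:123150946-123157432 on the plus strand, *Wnt2*, a secreted Wnt ligand, at chr6:17988940-18030585 on the minus strand, *Ly6a* at chr15:74994877-74998031 on the minus strand, *Efemp1* (fibulin 3) at chr11:28853204-28926743 on the plus strand and *Pdgfra* at chr5:75152292-75198215 on the plus strand. The reference table held promoters of *Pi16*, *Wnt2* and *Efemp1*, which are printed because their genes chose the cells. *Clec3b* and *Ly6a* were not in it. Each runs 5′ to 3′ on the gene's strand, from 250 bases before to 50 bases after the RefSeq start (GRCm38.p6), and capitals mark 2 motifs searched on both strands without overlap between them, GGGCGG (reverse CCGCCC, the GC box bound by Sp and Klf factors) and CACCC (reverse GGGTG, bound by Klf factors).
*Pi16* promoter, chr17:29318632-29318931, plus strand: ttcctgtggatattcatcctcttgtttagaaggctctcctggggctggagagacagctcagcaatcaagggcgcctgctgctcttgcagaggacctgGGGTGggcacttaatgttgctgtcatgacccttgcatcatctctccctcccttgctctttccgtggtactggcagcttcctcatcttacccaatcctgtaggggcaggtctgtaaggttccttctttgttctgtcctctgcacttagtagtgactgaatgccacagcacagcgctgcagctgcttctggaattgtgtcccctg
*Wnt2* promoter, chr6:18030396-18030695, minus strand: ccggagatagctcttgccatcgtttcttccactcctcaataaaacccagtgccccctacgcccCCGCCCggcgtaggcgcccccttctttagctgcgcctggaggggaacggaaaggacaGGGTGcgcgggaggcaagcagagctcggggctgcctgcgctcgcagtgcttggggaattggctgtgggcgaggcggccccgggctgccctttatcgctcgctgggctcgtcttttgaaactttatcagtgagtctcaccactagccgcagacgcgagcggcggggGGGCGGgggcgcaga
*Efemp1* promoter, chr11:28852955-28853254, plus strand: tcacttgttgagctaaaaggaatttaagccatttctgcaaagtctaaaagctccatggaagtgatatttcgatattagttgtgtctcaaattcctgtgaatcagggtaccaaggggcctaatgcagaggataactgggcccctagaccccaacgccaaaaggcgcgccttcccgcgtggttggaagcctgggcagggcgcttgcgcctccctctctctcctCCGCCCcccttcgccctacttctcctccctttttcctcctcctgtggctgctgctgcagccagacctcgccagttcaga
The RefSeq starts of *Pi16* and *Wnt2* lie inside the GENCODE genes. The *Pi16* promoter held 1 CACCC and no GGGCGG, the *Wnt2* promoter 1 CACCC and 2 GGGCGG, and the *Efemp1* promoter 1 GGGCGG and no CACCC. Of all 32851 RefSeq mouse promoters of the same length, 57.5% held CACCC and 35.7% held GGGCGG. G and C made up 53.3% of the bases in *Pi16*, 65.7% in *Wnt2* and 54.3% in *Efemp1*, against a median of 52.7% over all promoters.

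Of penis cells with a *Pdgfra* UMI, 18.9 ± 0.63% (SD, n = 3) passed the rule. The shares in the libraries were 19.6%, 18.5% and 18.6%, with 95% exact binomial intervals of 18.3 to 20.97, 17.2 to 19.7 and 17.2 to 20.1 that cover counting error only. The intervals of the 3 libraries overlap. The share moved with depth. With each cell thinned to 4000 UMIs it was 13.4 ± 0.705%, and with 2000 UMIs it was 7.57 ± 0.612%. Asking for 2 markers in place of 3 gave 27.9 ± 0.678%, and asking for 4 gave 13.6 ± 0.751%. The limit of 3 does not fall in a gap. Of the *Pdgfra* cells, 4950 had no marker, 2454 had 1 and 925 had 2 (just outside), while 550 had 3 (just inside), 635 had 4 and 758 had all 5. Of the 2246 kept penis cells with 3 or more markers, 86.5% had a *Pdgfra* UMI, which leaves 303 cells that the rule passed over.

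The median depth of *Pi16*/*Clec3b* cells was 12267, 12187 and 11105 UMIs in the libraries, above the 10736, 10170 and 9329 UMIs of the other *Pdgfra* cells. Their median mitochondrial share was lower, 1.60% to 1.75% against 2.25% to 2.35%. The kept cells of 2 penis libraries shared at most 19 barcodes, and no *Pi16*/*Clec3b* cell shared one. No doublet caller was run.

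The 6 genes of the rule are given as a description, since they chose the cells. Levels are in CPM, a gene's share of all UMIs of the summed cells of a library, scaled to 1000000 UMIs. *Pi16* stood at 235, 243 and 213 CPM in *Pi16*/*Clec3b* cells of libraries 1 to 3 and 9.71, 10.1 and 8.42 CPM in the other *Pdgfra* cells. *Clec3b* stood at 488, 465 and 451 against 17.9, 20.5 and 20.02 CPM. *Wnt2* stood at 263, 245 and 245 against 8.27, 8.501 and 8.42 CPM. Each of these genes was far higher in every selected sum than in any comparison sum. *Ly6a* stood at 539, 479.7 and 543 against 24.7, 26.3 and 32.7 CPM. *Efemp1*, the least exclusive of the 5, stood at 315, 304 and 315 against 42.5, 41.6 and 37.6 CPM. *Pdgfra*, which both groups had to show, was close to even, at 256, 270.4 and 281 against 227, 246 and 256 CPM.

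The label fits the markers in part. A UMI of *Ly6a* was found in 90.9 ± 1.12% of *Pi16*/*Clec3b* cells, *Efemp1* in 88.1 ± 0.371%, *Wnt2* in 83.1 ± 0.974%, *Clec3b* in 80.8 ± 2.45% and *Pi16* in 67.7 ± 2.07%. *Pi16*, the name gene, was thus the one most often missing. In the other *Pdgfra* cells the shares ran from 4.98 ± 0.396% for *Wnt2* to 19.4 ± 1.08% for *Efemp1*. For comparison, the shares were taken in penis leukocytes (cells with *Ptprc* and *Tyrobp* and without *Pdgfra*, 180, 169 and 165 cells with medians of 8032, 8188 and 6679 UMIs). *Pi16* had a UMI in 16.97% to 17.8% of them, more than in the other *Pdgfra* cells, while each of the other 4 markers stayed at or under 3.89% and 3 or more markers together were found in at most 0.606%. The share of other *Pdgfra* cells with a *Pi16* UMI was 6.81 ± 0.878%, lower than in the shallower leukocytes, so the leukocytes give no background level for *Pi16*, and neither share is read further.

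**Figure D1:**
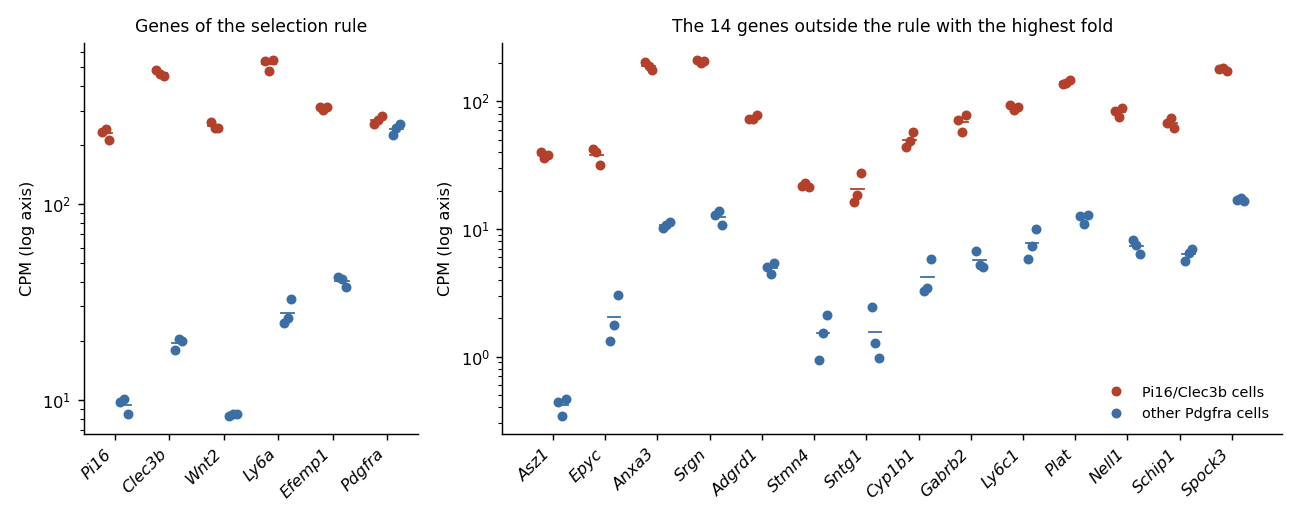
Levels in CPM (log axis) in *Pi16*/*Clec3b* cells (red) and other *Pdgfra* cells (blue) of the P6 penis; the 3 points of a set are libraries 1 to 3 from left to right and the line is their mean. The left panel holds the genes that chose the cells. The right panel holds the 14 highest folds among called genes outside the rule with a mean of at least 20 CPM in *Pi16*/*Clec3b* cells, without Gm or Rik names. Their red points all lie above all blue points, and the groups did not overlap for 61.2% of all genes tested.

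To ask what else set these cells apart, UMIs were summed per library over the *Pi16*/*Clec3b* cells and over the other *Pdgfra* cells, the 6 rule genes were removed, and the sums were compared with edgeR's quasi-likelihood test, with the library as a block and TMM scaling. A gene was called at a Benjamini-Hochberg adjusted p under 0.01 and a log2 fold change beyond 1 in either direction. Of 17001 genes tested, 833 were called higher in *Pi16*/*Clec3b* cells (4.9% of genes) and 1286 lower (7.56%), and the median log2 fold change over all genes was -0.0062. The list counts below stand beside these shares, in which lower calls already outnumber higher ones. Scaling by library totals moved that median to -0.18 and the counts to 660 higher and 1635 lower. TMM factors were 0.929 to 0.956 for the *Pi16*/*Clec3b* sums and 1.05 to 1.08 for the others. *Col1a1*, *Col1a2*, *Col3a1* and *Dcn* alone took 5.58 ± 0.0559% of the UMIs of *Pi16*/*Clec3b* cells and 2.02 ± 0.0338% of those of the other *Pdgfra* cells. Log2 fold changes below use TMM, so a gene at a log2 fold change of 0 shows slightly lower CPM in *Pi16*/*Clec3b* cells. In these sums, more cells with an RNA and more of that RNA per cell cannot be told apart.

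Among called genes with a mean of at least 20 CPM in *Pi16*/*Clec3b* cells, the 14 highest had log2 fold changes from 3.57 to 6.68. Gm and Rik names were left out. *Anxa3* (annexin A3) stood at 203, 191 and 178 CPM against 10.1, 10.7 and 11.3 CPM (log2 fold change 4.34 ± 0.053 (SE), adjusted p = 5.25e-16). *Srgn* (serglycin, a core protein for proteoglycans of secretory granules) stood at 209, 200.1 and 208 against 12.98, 13.8 and 10.7 CPM (log2 fold change 4.20 ± 0.058 (SE), adjusted p = 1.34e-15). *Plat*, the tissue plasminogen activator, stood at 138, 140.3 and 148 against 12.6, 10.96 and 12.9 CPM (log2 fold change 3.73 ± 0.051 (SE), adjusted p = 1.23e-15). For each of these genes the *Pi16*/*Clec3b* sums were at least 10 times the other sums in every library. *Adgrd1*, an adhesion G protein-coupled receptor, stood at 73.4, 72.98 and 78.1 against 4.997, 4.45 and 5.44 CPM (log2 fold change 4.09 ± 0.082 (SE), adjusted p = 6.32e-14). *Spock3*, a testican, stood at 179, 182 and 174 against 16.8, 17.5 and 16.5 CPM (log2 fold change 3.57 ± 0.039 (SE), adjusted p = 3.48e-16). *Gabrb2*, a subunit of the GABA-A receptor, stood at 71.6, 57.9 and 77.8 against 6.73, 5.26 and 5.06 CPM (log2 fold change 3.76 ± 0.10 (SE), adjusted p = 1.18e-12). Among the rest of the 14, *Cyp1b1* (a cytochrome P450 that oxidizes steroids and retinoids), *Nell1*, *Schip1*, *Stmn4* (a stathmin) and *Sntg1* (a syntrophin) had log2 fold changes of 3.80, 3.65, 3.60, 4.07 and 3.82. All of these genes were higher in 3 of 3 libraries, which was a condition for being among the 14.

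Of the 14 leading genes, *Asz1* and *Ly6c1* are described with their position because each lies near a rule gene. *Asz1*, known from germ cells, lies at chr6:18050964-18109061, 20378 bases upstream of the *Wnt2* start. It had the highest fold of all named genes, at 40.04, 36.2 and 37.8 CPM against 0.44001, 0.343 and 0.468 CPM (log2 fold change 6.68 ± 0.13 (SE), adjusted p = 5.57e-14). Within *Pi16*/*Clec3b* cells, 29.7 ± 1.21% of those with a *Wnt2* UMI had an *Asz1* UMI, compared with 4.43 ± 3.34% of those without and 0.33 ± 0.0774% of the other *Pdgfra* cells. *Ly6c1*, a surface protein of the Ly6 family, lies at chr15:75044018-75048830, 45986 bases from *Ly6a*, and stood at 92.9, 86.1 and 90.3 against 5.85, 7.32 and 9.99 CPM (log2 fold change 3.75 ± 0.11 (SE), adjusted p = 2.66e-12). It was found in 51.1 ± 2.35% of *Pi16*/*Clec3b* cells with a *Ly6a* UMI, in 8.81 ± 2.83% of those without and in 4.57 ± 0.878% of the other *Pdgfra* cells. The splits by *Wnt2* and *Ly6a* are descriptions, since the rule used both genes, their detection moves with depth, and no gene lying elsewhere was split in the same way. Whether reads were shared between the genes or the genes were transcribed together was not tested. Of the 5 tested members of the Ly6 list, *Ly6c1* and *Ly6e* were called higher and none lower, while *Ly6h* had a log2 fold change of 0.77 and *Ly6d* of -0.39.

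Other genes known from *Pi16* fibroblasts followed the rule genes. Of 25 tested genes of that list, 19 were called higher and 0 lower, with a median log2 fold change of 1.78. The list was chosen with earlier results of these data known and holds *Anxa3*, given above, so its count is a description. *Igfbp6*, which binds insulin-like growth factor 2, stood at 321, 316 and 259 against 36.2, 41.3 and 34.1 CPM (log2 fold change 3.18 ± 0.042 (SE), adjusted p = 9.48e-16). *Cd55*, a brake on complement, stood at 78.97, 71.3 and 70.6 against 7.04, 7.82 and 10.3 CPM (log2 fold change 3.33 ± 0.11 (SE), adjusted p = 6.18e-12). *Mfap5*, a microfibril protein, stood at 2260.01, 2089.7 and 2068 against 544, 545 and 511 CPM (log2 fold change 2.18 ± 0.026 (SE), adjusted p = 5.25e-16). The sums of the 2 groups did not overlap for any of these 3 genes, as was so for 61.2% of all genes tested. *Uchl1* and *Il33*, an alarmin, were also higher, with log2 fold changes of 3.35 and 1.94. *Dpp4* and *Cd34*, named after their values were seen because both are standard surface markers of these cells, rose too. *Dpp4* was sparse, at 9.01, 11.5 and 7.65 against 0.88003, 0.965 and 1.66 CPM (log2 fold change 3.23 ± 0.25 (SE), adjusted p = 8.51e-08). *Cd34* stood at 427, 408 and 428 against 159.7, 161 and 166 CPM (log2 fold change 1.55 ± 0.028 (SE), adjusted p = 1.65e-14). The 6 members without a call included *Col14a1* at 0.94 and *Creb5* at 0.85. *Scara5* and *Pcolce2*, also named after their values were seen, were the only 2 of the 25 with a negative log2 fold change, at -0.60 (adjusted p = 1.39e-06) and -0.32 (adjusted p = 0.107). *Scara5* was called lower with 4 markers in place of 3.

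Matrix genes were described by class. Of 11 small leucine-rich proteoglycans, which bind collagen fibrils and set their spacing, 6 were called higher and 0 lower (median log2 fold change 1.23). *Dcn* (decorin) stood at 11803, 11245 and 11259.7 CPM against 2189, 2247 and 2173 CPM (log2 fold change 2.55 ± 0.024 (SE), adjusted p = 1.72e-16). *Lum* (lumican) stood at 826, 799.7 and 800.01 against 265, 264 and 259 CPM (log2 fold change 1.80 ± 0.025 (SE), adjusted p = 1.28e-15). *Kera* (keratocan) stood at 102, 160.02 and 122 against 32.1, 31.1 and 29.4 CPM (log2 fold change 2.22 ± 0.091 (SE), adjusted p = 1.01e-10). The largest fold was that of their neighbour *Epyc* (epiphycan), which was nearly absent from the other *Pdgfra* cells, at 42.4, 39.98 and 31.9 against 1.32, 1.77 and 3.02 CPM (log2 fold change 4.47 ± 0.19 (SE), adjusted p = 1.20e-10). *Dcn*, *Lum*, *Kera* and *Epyc* lie in that order on the plus strand of chromosome 10, between chr10:97479609-97518143 and chr10:97644068-97682454. *Bgn* (biglycan) had a log2 fold change of -0.055 and *Fmod* (fibromodulin, which is abundant in tendon) of -0.96, and neither was called, although *Fmod* was called lower in 6 alternatives.

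Elastic fibre genes were higher or without a call. Of 21 tested, 8 were called higher and 0 lower (median 0.65). *Lox*, which crosslinks elastin and collagen, stood at 1044, 1049.7 and 1054 against 308, 329 and 300.4 CPM (log2 fold change 1.92 ± 0.029 (SE), adjusted p = 3.08e-15). *Ltbp4*, needed to lay elastin on microfibrils, stood at 549.7, 529 and 550.1 against 179, 199 and 205 CPM (log2 fold change 1.66 ± 0.036 (SE), adjusted p = 1.40e-13). *Emilin2* had a log2 fold change of 2.09. *Fbn2*, the fibrillin of early development, and *Mfap2* were not called, at -0.47 and 0.36. Among 15 interstitial collagens, 4 were called higher and 2 lower (median 0.93). *Col5a3* stood at 177, 168 and 186 against 36.4, 36.3 and 37.8 CPM (log2 fold change 2.44 ± 0.036 (SE), adjusted p = 2.65e-15). *Col3a1* stood at 16635, 17059 and 17877 against 6198, 6516 and 6522 CPM (log2 fold change 1.60 ± 0.020 (SE), adjusted p = 6.73e-16). *Col1a2* and *Col1a1*, named after their values were seen, rose as well, by log2 fold changes of 1.498 and 1.32. The called collagens in the other direction were *Col11a1*, a cartilage fibril collagen, at -1.79 and *Col26a1* at -2.06. In the hyaluronan list the synthases *Has1* and *Has2* were called higher (1.47 and 1.24) and *Cemip* and *Cemip2*, which serve hyaluronan breakdown, lower (-1.64 and -1.21), out of 11 genes with a median of 0.043. *Vcan* (versican) had -0.72 and was not called.

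**Figure D2:**
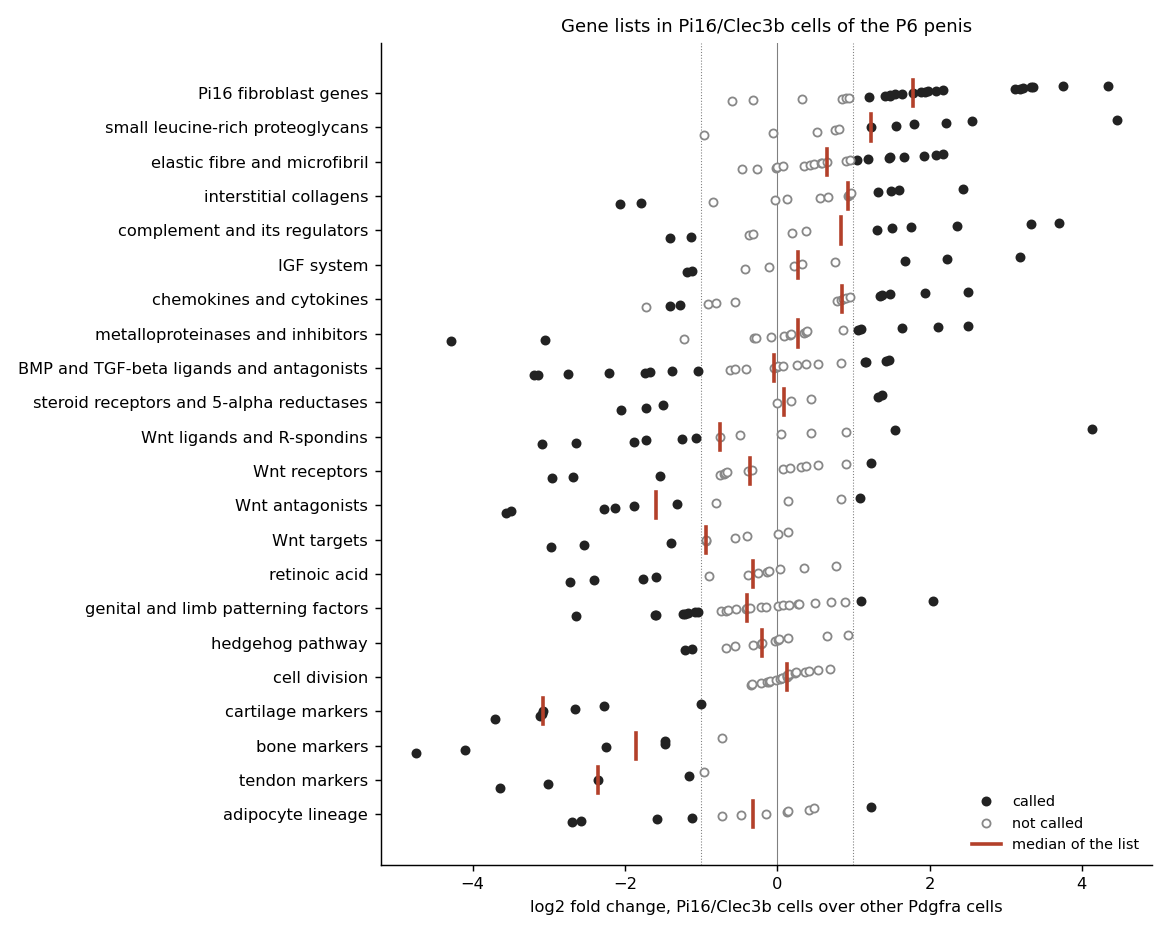
Log2 fold change of each tested member of 22 gene lists, *Pi16*/*Clec3b* cells over other *Pdgfra* cells of the P6 penis (filled, called; open, not called; red bar, median of the list; dotted lines, log2 fold changes of -1 and 1). The *Pi16* fibroblast genes and the proteoglycans lie mostly on the right, and the cartilage, bone and tendon markers and the Wnt antagonists mostly on the left.

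Components of Wnt signaling, which *Wnt2* opens, were more often called lower than higher in *Pi16*/*Clec3b* cells. The same held for all genes tested (7.56% lower and 4.9% higher). Of 13 other Wnt ligands and R-spondins, 2 were called higher and 6 lower (median -0.75). *Wnt10b* was the ligand with the largest rise, at 8.68, 7.77 and 6.56 against 0.314, 0.592 and 0.595 CPM (log2 fold change 4.13 ± 0.27 (SE), adjusted p = 1.38e-08). *Wnt10a*, its close relative, went the other way, at 0.222, 0.914 and 0.469 against 6.41, 4.61 and 4.51 CPM (log2 fold change -3.09 ± 0.34 (SE), adjusted p = 4.12e-06). Without library 1 its log2 fold change was -2.48 and without library 2 it was -3.90. *Wnt6* stood at 3.78, 3.43 and 3.28 against 27.3, 24.04 and 22.6 CPM (log2 fold change -2.64 ± 0.12 (SE), adjusted p = 2.19e-10). *Rspo2*, an R-spondin that raises Wnt receptor levels, had a log2 fold change of -1.88, without a call with 2 markers in place of 3. *Wnt11* (0.91) and *Wnt5a* (0.051) were not called. Secreted Wnt antagonists included 1 called higher and 6 called lower of 10 (median -1.60). *Wif1*, which binds Wnt proteins, stood at 13.6, 12.3 and 18.7 against 199, 177 and 177 CPM (log2 fold change -3.496 ± 0.078 (SE), adjusted p = 1.66e-13). *Dkk2*, which binds the LRP co-receptors, stood at 53.8, 58.8 and 58.4 against 298, 317 and 324 CPM (log2 fold change -2.28 ± 0.034 (SE), adjusted p = 3.16e-15). *Notum*, a Wnt deacylase, stood at 0.779, 0.457 and 0.781 against 11.5, 7.07 and 7.91 CPM (log2 fold change -3.56 ± 0.22 (SE), adjusted p = 9.22e-09). For these 3 antagonists the highest *Pi16*/*Clec3b* sum was under the lowest other sum. Sums of the groups did not overlap, in either direction, for 61.2% of all genes tested. *Frzb* was lower too (-2.13), and the exception that was called higher was *Sfrp2* (1.08), named after its value was seen and without a call in 4 alternatives, among them scaling by library totals.

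Most receptors and targets of the pathway were without a call. Of 16 Wnt receptors and co-receptors, 1 was called higher (*Fzd4*, 1.22) and 3 lower (*Lrp5* -1.54, *Fzd9* -2.69 and *Fzd10* -2.95), with a median of -0.36. *Fzd2* (0.53) and *Lgr5* (-0.33) were not called. Of 9 genes known as Wnt targets, 0 were called higher and 3 lower, with a median of -0.94. *Lef1*, a transcription factor at the end of the canonical pathway, stood at 2.002, 3.43 and 2.19 against 16.2, 16.8 and 18.1 CPM (log2 fold change -2.55 ± 0.15 (SE), adjusted p = 6.58e-09). *Nkd2*, a feedback inhibitor, stood at 7.67, 6.05 and 6.25 against 62.8, 53.9 and 61.2 CPM (log2 fold change -2.97 ± 0.081 (SE), adjusted p = 1.25e-12). *Tcf7* had a log2 fold change of -1.39. *Axin2*, the usual reporter of canonical signaling and named after its value was seen, had -0.94 (adjusted p = 1.42e-06), which falls short of the fold limit, and was called lower in 3 alternatives. *Twist1* and *Twist2* had 0.0077 and 0.13.

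BMP and activin genes were split. Of 23 BMP and TGF-beta ligands, antagonists and related genes, 4 were called higher and 8 lower (median -0.038). The called genes named in this paragraph are all among the 8 lower ones, and the 4 higher ones are not named. *Bmp6* stood at 8.68, 7.77 and 6.25 against 80.5, 74.05 and 85.1 CPM (log2 fold change -3.19 ± 0.082 (SE), adjusted p = 6.70e-13). *Bmp5* stood at 1.89, 2.399 and 4.53 against 26.97, 29.1 and 27.8 CPM (log2 fold change -3.15 ± 0.17 (SE), adjusted p = 1.75e-09). Both BMPs were lower in 3 of 3 libraries, and *Inhbb*, an activin subunit, was lower as well (-2.75). *Gdf10* and *Fst* (follistatin, which binds activins) were not called, at 0.37 and -0.038.

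Genes of steroid action did not move together. *Srd5a2*, the reductase that makes dihydrotestosterone in genital mesenchyme, stood at 19.8, 23.2 and 22.8 CPM in *Pi16*/*Clec3b* cells against 105, 104 and 96.2 CPM in the other *Pdgfra* cells (log2 fold change -2.05 ± 0.060 (SE), adjusted p = 2.52e-12). *Srd5a1*, the other main reductase and named after its value was seen, went the opposite way, at 17.4, 13.8 and 12.03 against 6.35, 6.88 and 6.33 CPM (log2 fold change 1.32 ± 0.12 (SE), adjusted p = 6.50e-07). *Esr1*, estrogen receptor alpha, stood at 29.5, 35.5 and 27.5 against 119, 113 and 118 CPM (log2 fold change -1.73 ± 0.064 (SE), adjusted p = 3.37e-11). *Nr3c2*, the mineralocorticoid receptor, was lower (-1.51) and the sparse *Pgr*, the progesterone receptor, higher (1.37), the first without a call with 2 markers in place of 3 and the second with DESeq2. *Nr3c1*, the glucocorticoid receptor, was not called (0.45). Of the 8 genes of this list, 2 were called higher and 3 lower, with a median of 0.093.

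**Figure D3:**
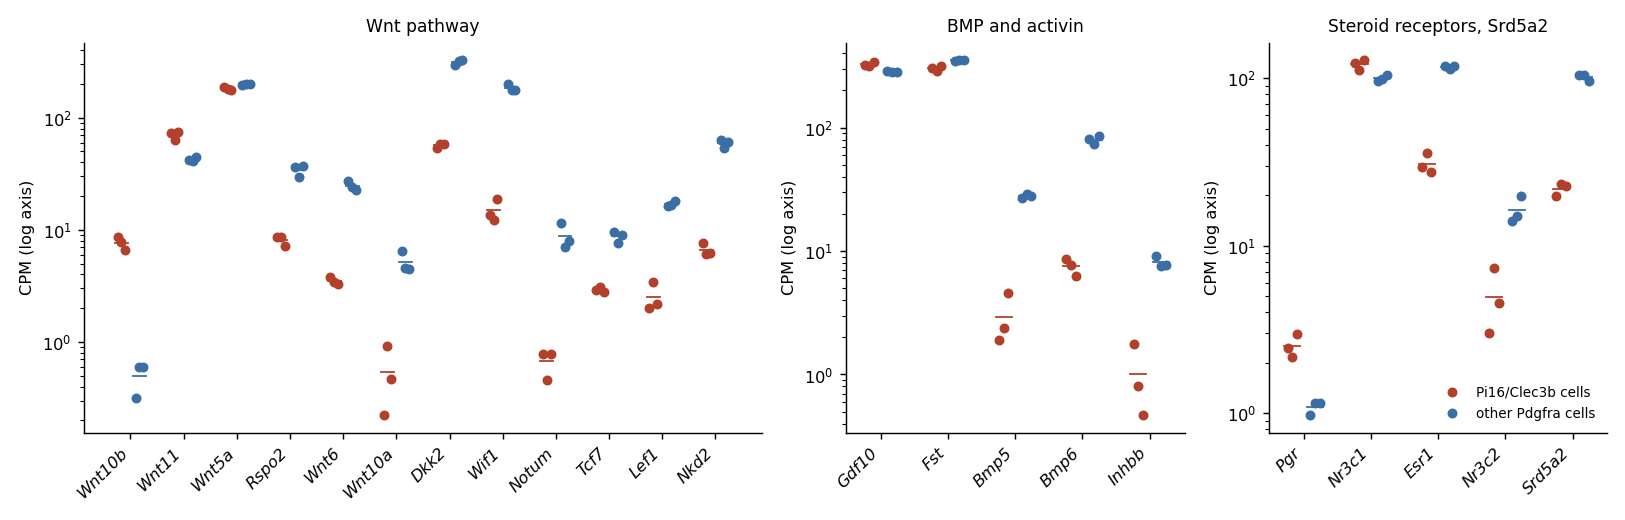
Levels in CPM (log axis) of Wnt, BMP and activin, and steroid genes in *Pi16*/*Clec3b* cells (red) and other *Pdgfra* cells (blue), with 1 point per library (1 to 3 from left to right) and a line at the mean. *Wif1*, *Bmp6*, *Esr1* and *Srd5a2* are lower in every *Pi16*/*Clec3b* sum than in any other sum, and *Wnt10b* is higher. Sums of the groups did not overlap for 61.2% of all genes tested.

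Complement and chemokine genes were more often called higher than lower. Of 12 complement genes, 6 were called higher and 2 lower (median 0.84). *Cfb* (factor B of the alternative pathway) stood at 17.1, 15.5 and 17.8 against 1.10, 1.68 and 1.62 CPM (log2 fold change 3.70 ± 0.17 (SE), adjusted p = 2.99e-10). *Serping1*, the C1 inhibitor, stood at 462, 460.2 and 468 against 98.8, 101 and 105 CPM (log2 fold change 2.37 ± 0.028 (SE), adjusted p = 5.25e-16). *C1ra* had a log2 fold change of 1.76, and *Clu* (clusterin) and *Masp1* were not called (0.38 and 0.20). Of 16 chemokines, cytokines and decoy receptors, 5 were called higher and 2 lower (median 0.85). *Cxcl12*, the ligand of CXCR4, stood at 350.5, 346 and 326 against 144, 149 and 154 CPM (log2 fold change 1.37 ± 0.035 (SE), adjusted p = 6.10e-13). *Cxcl1* was higher too (1.48), *Lif* was higher but sparse (1.78, 1.71 and 1.25 against 0.251, 0.467 and 0.213 CPM), and *Ackr4*, a decoy for CCL19 and CCL21, was lower (-1.42). *Cxcl14* was not called (-0.55).

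In the IGF system 3 of 10 genes were called higher and 2 lower (median 0.27). *Igf2* stood at 841, 932 and 836 against 199, 214 and 217 CPM (log2 fold change 2.23 ± 0.032 (SE), adjusted p = 1.71e-15). *Igf1*, named after its value was seen, went the other way, at 368, 446 and 469.6 against 1000.2, 1031 and 1091 CPM (log2 fold change -1.11 ± 0.038 (SE), adjusted p = 1.59e-11). The call of *Igf1* was lost with 2 markers in place of 3, and with comparison cells that had none of the 5 markers. Of the binding proteins, *Igfbp5* was higher (1.67) beside *Igfbp6*, *Igfbp2* lower (-1.18, without a call with 2 markers), and *Igfbp4* (-0.11) and *Igfbp7* (-0.43) without a call. Of 18 metalloproteinases and inhibitors, 5 were called higher and 2 lower (median 0.27). *Adamts5*, an aggrecanase, and *Mmp23* were higher (2.504 and 2.11), *Mmp13*, a collagenase of hypertrophic cartilage and bone, and *Timp4* lower (-4.28 and -3.06), and *Mmp2* (-0.080) and *Mmp14* (0.18) not called.

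Patterning genes were more often called lower than higher, as were all genes tested (7.56% lower and 4.9% higher). Of 27 genital and limb patterning factors, 2 were called higher and 8 lower (median -0.40). *Irx3* stood at 23.6, 18.05 and 22.96 against 6.19, 6.73 and 4.51 CPM (log2 fold change 2.04 ± 0.14 (SE), adjusted p = 2.55e-08). *Msx2*, a BMP-responsive homeobox gene, stood at 5.12, 3.54 and 3.28 against 30.1, 27.5 and 27.2 CPM (log2 fold change -2.64 ± 0.12 (SE), adjusted p = 3.82e-10). *Six2* was lower (-1.61), without a call with 2 markers in place of 3. Of the 8 tested posterior Hox genes, which set position along the body, *Hoxa13* was called lower, at 25.7, 17.5 and 19.997 against 54.6, 50.3 and 56.4 CPM (log2 fold change -1.17 ± 0.080 (SE), adjusted p = 2.63e-08). That call too was lost with 2 markers. *Hoxd13*, its partner at the distal end, was not called, at 71.1, 74.1 and 73.6 against 77.4, 76.7 and 80.3 CPM (log2 fold change 0.077 ± 0.039 (SE), adjusted p = 0.12). The remaining 6, *Hoxa10*, *Hoxa11*, *Hoxc10*, *Hoxd10*, *Hoxd11* and *Hoxd12*, ran from -0.67 to 0.29 without a call. *Prrx1* and *Isl1*, both markers of this mesenchyme, had 0.15 and 0.0031.

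Other regulators were mixed. Of 20 further fibroblast transcription factors, 6 were called higher and 4 lower (median 0.20). *Ebf3* stood at 17.6, 18.5 and 20.8 against 3.96, 4.702 and 5.695 CPM (log2 fold change 2.17 ± 0.11 (SE), adjusted p = 8.73e-10). *Meox2*, a homeobox gene of mesoderm, stood at 7.56, 7.42 and 8.905 against 43.7, 41.5 and 43.3 CPM (log2 fold change -2.27 ± 0.090 (SE), adjusted p = 7.50e-11). *Meox1* and *Tcf21* were lower (-2.07 and -2.22), without a call when cells were thinned to 4000 UMIs, and *Ebf1* and *Nfib* not called (0.90 and -0.60). *Klf4*, a zinc finger factor, named here after its value was seen, stood at 878, 873 and 885 against 475, 468 and 518 CPM (log2 fold change 1.03 ± 0.027 (SE), adjusted p = 9.33e-13), just past the fold limit and not past it when scaled by library totals or with 2 markers. Of 12 retinoic acid genes, 0 were called higher and 4 lower (median -0.32). *Crabp1*, which binds retinoic acid in the cytoplasm, stood at 28.6, 32.3 and 24.5 against 242, 206 and 186 CPM (log2 fold change -2.72 ± 0.059 (SE), adjusted p = 1.28e-13). *Cyp26b1*, which degrades it, *Stra6* and *Crabp2* were lower (-2.41, -1.76 and -1.59), and *Aldh1a3*, which makes it, was not called (-0.13). Of 13 hedgehog genes, 0 were called higher and 2 lower, the co-receptors *Cdon* and *Boc* (-1.21 and -1.12), with a median of -0.20. Among all genes tested, 7.56% were called lower. With 2 markers in place of 3 neither *Cdon* nor *Boc* was called, nor were *Stra6* and *Crabp2*. *Gas1* and *Gli3* had 0.026 and -0.32.

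Genes of the skeletal lineages were lower in *Pi16*/*Clec3b* cells. All 7 cartilage markers tested were called lower (median -3.08), among them *Col2a1* (2.89, 6.396 and 3.75 against 38.8, 58.2 and 28.1 CPM, log2 fold change -3.11 ± 0.12 (SE), adjusted p = 6.30e-11). *Sox9*, which specifies cartilage, stood at 24.6, 24.9 and 19.7 against 129, 126 and 128 CPM (log2 fold change -2.28 ± 0.058 (SE), adjusted p = 5.93e-13), and *Acan* had a log2 fold change of -3.70. Of 6 bone markers, 5 were called lower (median -1.86), led by *Spp1* (osteopontin) at 3.23, 4.91 and 4.37 against 126, 143 and 102 CPM (log2 fold change -4.75 ± 0.084 (SE), adjusted p = 1.65e-14). *Ibsp* (bone sialoprotein) differed widely between libraries in the other *Pdgfra* cells, at 0.779, 2.28 and 2.03 against 52.6, 10.8 and 37.9 CPM (log2 fold change -4.10 ± 0.32 (SE), adjusted p = 1.19e-07), without a call in thinned cells, and *Alpl* was not called (-0.72). *Runx2*, the master regulator of bone, stood at 4.004, 5.37 and 19.7 against 26.8, 28.7 and 26.1 CPM (log2 fold change -1.48 ± 0.29 (SE), adjusted p = 7.55e-04), with library 3 close to the comparison and a log2 fold change of -2.39 without it. *Runx2* had no call with DESeq2. Of 5 tendon markers, 4 were called lower (median -2.35), with *Scx* at -3.65.

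Among 12 adipocyte lineage genes, 1 was called higher and 4 lower (median -0.31). *Pparg*, the regulator of fat cell fate, stood at 4.67, 6.85 and 4.84 against 40.04, 39.1 and 42.6 CPM (log2 fold change -2.70 ± 0.12 (SE), adjusted p = 1.84e-10). *Apoc1* (-2.58) was lower and *Ebf2* (1.23) higher, the latter without a call when cells with a UMI of another type were left out. *Col15a1*, which marks a second widespread fibroblast class, was lower at 161, 156 and 169 against 391, 384 and 398 CPM (log2 fold change -1.10 ± 0.029 (SE), adjusted p = 9.05e-13), and its list of 12 genes held 1 called higher and 2 lower (median -0.07). Among all genes tested, 4.9% were called higher and 7.56% lower. *Col15a1* had no call with 2 markers. Of 4 tested genes of other penis stromal populations, 0 were called higher and 3 lower: *Angpt2*, an angiopoietin, stood at 21.8, 19.6 and 26.9 against 151, 157 and 142 CPM (log2 fold change -2.57 ± 0.073 (SE), adjusted p = 1.86e-12), beside *Srd5a2* and *Sox9* given above. *Sim1* was not called, at -0.15. The comparison was all *Pdgfra* cells that the rule left, so cells with genes of these populations or with skeletal genes were part of it. Lower sums of such genes therefore describe the comparison as much as the selected cells. Other genes with the lowest folds, among called genes with a mean of at least 20 CPM in the other *Pdgfra* cells, were *Prg4* (lubricin, -4.07), *Myoc* (myocilin, -4.05), *Ostn* (osteocrin, -3.98), *Nrg1* (neuregulin 1, -3.65) and *Orm3* (-3.54). All were lower in 3 of 3 libraries, which was a condition for being named by their fold.

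Markers of other cell types were checked as lists. Endothelial markers had 0 of 6 called higher and 4 lower, with summed levels of 70.8 to 88.6 CPM against 103 to 123 CPM. Leukocyte markers had 0 of 5 higher and 3 lower, with 14.1 to 27.8 against 42.6 to 50.9 CPM, and *Ptprc* itself stood at 0.556, 0.7995 and 0.469 against 3.58, 4.64 and 3.91 CPM (log2 fold change -2.52 ± 0.28 (SE), adjusted p = 4.36e-06). Epithelial markers had 0 of 5 called, with 31.1 to 54.4 against 60.1 to 96.7 CPM. All 3 lists summed lower in every *Pi16*/*Clec3b* sum than in any other sum. Sums of the groups did not overlap, in either direction, for 61.2% of all genes tested. A list sum does not describe each member. The endothelial gene *Kdr* had a UMI in 12.46 ± 1.18% of *Pi16*/*Clec3b* cells and 5.918 ± 0.227% of the other *Pdgfra* cells. In thinned cells these shares were 5.06 ± 0.676% and 2.89 ± 0.115%. Glial markers had 0 of 2 higher and 2 lower, at 0.7995 to 2.34 against 3.83 to 5.57 CPM. Mast cell markers (2 tested) had no call. The mesothelial marker tested, *Msln*, had none either (0.48), and that list was near 0 in both groups, at 1.09 to 1.83 against 0.716 to 1.48 CPM. Red blood cell markers had 0 of 4 called and summed to 2898 to 4632 against 5019 to 5239 CPM, and *Hbb-bs* had a UMI in 75.8 ± 4.78% and 71.5 ± 6.74% of the cells, so haemoglobin RNA was found in most cells of both groups. *S100a8* and *S100a9*, abundant in neutrophils, were lower (-4.04 and -4.71), with other *Pdgfra* levels of *S100a9* between 2.89 and 45.6 CPM. Their part in these results was not tested. Without the cells that held a UMI of a defining marker of leukocytes, endothelium, epithelium, glia or mural cells, 820 genes were called higher and 1130 lower. In that alternative the endothelial *Cldn5* and the leukocyte *Tyrobp*, both counted as lower above, changed sign.

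Mural markers held 1 exception. Of 6, 4 were called lower, including *Acta2* (smooth muscle actin, 15.2, 8.79 and 6.72 against 57.9, 66.5 and 82.1 CPM, log2 fold change -2.49 ± 0.17 (SE), adjusted p = 1.85e-08), while *Kcnj8* was called higher at 32.6, 26.6 and 26.9 against 3.17, 2.74 and 2.64 CPM (log2 fold change 3.501 ± 0.10 (SE), adjusted p = 2.26e-12). *Kcnj8* encodes the pore and *Abcc9* the sulfonylurea receptor subunit of an ATP-sensitive potassium channel found in pericytes. *Abcc9*, looked at after *Kcnj8*, was higher too, at 92.2, 88.9 and 99.5 against 7.98, 8.31 and 10.8 CPM (log2 fold change 3.56 ± 0.072 (SE), adjusted p = 6.87e-14). Both subunits were thus high in the summed *Pi16*/*Clec3b* cells. In the same sums the pericyte marker *Rgs5* stood at 2.34, 2.28 and 2.03 against 7.61, 10.7 and 13.2 CPM (log2 fold change -2.01 ± 0.18 (SE), adjusted p = 4.22e-07) and *Cspg4* was not called (-0.29). A *Kcnj8* UMI was found in 22.1 ± 2.74% of *Pi16*/*Clec3b* cells, and whether single cells held both subunits was not examined.

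Cell division genes were without a call. With each cell thinned to 4000 UMIs, 8.76 ± 0.514% of *Pi16*/*Clec3b* cells and 10.6 ± 0.537% of the other *Pdgfra* cells had a UMI of *Mki67* or *Top2a*, leaving out 10, 6 and 7 shallower *Pi16*/*Clec3b* cells and 140, 157 and 127 others. The difference was -1.86 ± 0.154 percentage points (SD of the 3 paired differences), lower in 3 of 3 libraries, with an exact paired permutation p of 0.25 (two-sided), the smallest that 3 pairs allow. Unthinned, the shares were 16.1 ± 1.02% and 17.5 ± 0.255%. None of 21 division genes was called by edgeR. Their median log2 fold change was 0.12, opposite in sign to the difference in shares. Of the 21, 10 had an unadjusted p under 0.05 by edgeR, whatever their direction. The share of all genes under that limit is not given here, so this count is not read further. Of 13 immediate early and stress genes, which respond to handling, 1 was called higher, *Atf3* at 174, 175 and 176 against 71.2, 76.9 and 80.4 CPM (log2 fold change 1.38 ± 0.036 (SE), adjusted p = 7.11e-13), and 0 lower (median 0.18), with *Fos* at -0.046 and *Jun* at 0.14.

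Within the *Pdgfra* cells, the levels of the genes given here, other than *Srgn*, changed with the number of markers on both sides of the limit of 3. All of them were called in the comparison above, so some change with the number of markers was already set. *Igfbp6* averaged 16.5 ± 1.77 CPM (SD, n = 3 libraries) in cells with 0 markers, 107 ± 27.2 with 2, 184 ± 38.2 with 3 and 405 ± 36.8 with all 5. *Anxa3* averaged 7.96 ± 1.25, 25.1 ± 4.99, 66.7 ± 3.01 and 284 ± 19.6 CPM at the same steps. *Dcn* averaged 1452 ± 82.8, 4644 ± 141, 7907 ± 86.9 and 13239 ± 351 CPM. Each of these genes was already higher with 2 markers, outside the limit, than with none. *Srgn* differed, with 11.9 ± 4.13, 13.3 ± 6.21 and 13.7 ± 3.396 CPM at 0, 1 and 2 markers, whose spreads overlap, and 52.6 ± 9.24, 166 ± 25.5 and 333 ± 17.7 CPM at 3, 4 and 5. In the other direction *Wif1* averaged 248 ± 13.1 CPM with no marker, 39.3 ± 14.4 with 2 and 9.32 ± 6.09 with 5. *Sox9* averaged 149 ± 1.99, 84.2 ± 1.48 and 11.3 ± 3.65 CPM, and *Pparg* 53.8 ± 3.89, 13.7 ± 3.22 and 2.09 ± 0.431 CPM. These are descriptions, since the number of markers defines the selected cells and also moves with depth, with library medians of 9037 to 10243 UMIs in cells without a marker and 11989 to 13643 in cells with 5.

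**Figure D4:**
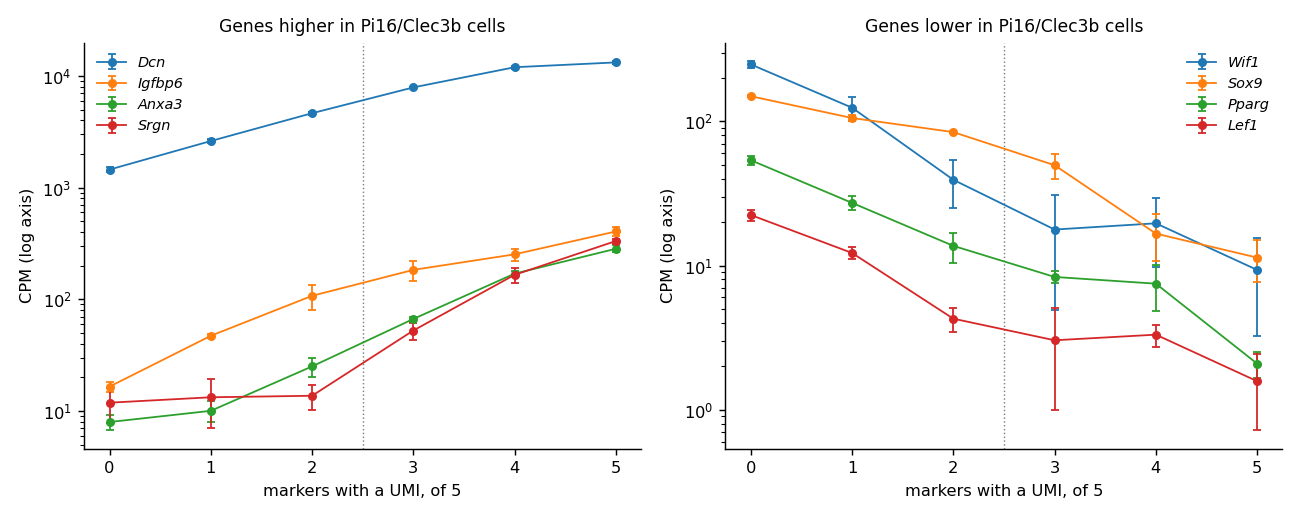
Mean level (CPM, log axis; bars are the SD over 3 penis libraries) of genes outside the rule in *Pdgfra* cells that had a UMI of 0 to 5 of the markers; cells to the right of the dotted line are the *Pi16*/*Clec3b* cells. *Igfbp6*, *Anxa3* and *Dcn* climb through all classes, *Srgn* from 3 markers on, and *Wif1*, *Sox9*, *Pparg* and *Lef1* fall from 0 to 5 markers.

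To see whether the same cells come together without the rule genes, the *Pdgfra* penis cells were clustered on 2000 variable genes from which the 6 rule genes were left out. At a Leiden resolution of 0.5, 1 of 22 clusters was over 50% *Pi16*/*Clec3b* cells. It held 1388 cells, of which 1202 (86.6%) were *Pi16*/*Clec3b* cells, and took in 61.9% of all *Pi16*/*Clec3b* cells, compared with 8.34% of the cells elsewhere being selected ones. The cluster took 61.7%, 60.5% and 63.8% of the selected cells of libraries 1 to 3. By number of markers it held 0.343% of cells with 0, 2.69% with 1, 11.1% with 2, 35.3% with 3, 71.2% with 4 and 73.4% with 5. Cells with 3 markers thus lay mostly outside it and cells with 4 or 5 mostly inside. At resolutions of 1 and 2, 4 of 28 and 6 of 43 clusters were over 50% and held 64.6% and 74.6% of the *Pi16*/*Clec3b* cells. This is a description of how the same cells group and is no test of the rule.

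The same rule was applied to the limbs to ask which of these differences were also found there. In the E15 limbs, 380 of 9943 forelimb *Pdgfra* cells (3.82%, 95% exact binomial interval 3.45 to 4.22) and 224 of 9805 hindlimb *Pdgfra* cells (2.28%, 1.998 to 2.60) passed it, with 1 library each. The limb limits were 100 to 9000 or 9500 genes, 10% mitochondrial UMIs and at least 0.8 for log10 genes over log10 UMIs. At 4000 UMIs per cell the shares were 1.79% and 0.952%. The other limb *Pdgfra* cells were far shallower than the selected ones, with medians of 5739 and 6479 against 10702 and 10040 UMIs. Tissue, age, library and the limits for keeping cells cannot be told apart in this comparison. The forelimb and hindlimb libraries were fitted as 1 limb group. In the selected forelimb and hindlimb cells *Pi16* stood at 98.9 and 76.2 CPM and *Wnt2* at 118 and 115 CPM, under every penis library. *Ly6a* (171 and 149 CPM) and *Efemp1* (155 and 135 CPM) were under every penis library too. *Clec3b* was within the penis range in the forelimb (454 CPM) and under it in the hindlimb (358 CPM). In one edgeR fit over all 10 sums, the contrast differed between penis and limb for 862 of 18546 genes (4.65%), with the log2 fold change higher in the penis for 369 (1.99%) and lower for 493 (2.66%). A lower value can stand for a smaller rise or for a fall in the penis. With cells thinned to 4000 UMIs the counts were 229 and 213. Of the unthinned calls, 364 and 481 were tested in the thinned sums, and 144 and 157 were called there again.

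The *Pi16* fibroblast list was compared between penis and limb as well. Of its 25 genes, 3 had a called difference with a higher log2 fold change in the penis (*Anxa3*, *Uchl1* and *Il33*) and 2 a called difference with a lower one (*Fbn1* and *Scara5*), beside 4.65% of all genes, with median log2 fold changes of 2.03 in the limbs and 1.78 in the penis. *Cd55* had 3.44 in the limbs against 3.33 in the penis, *Igfbp6* 3.38 against 3.18, and *Adgrd1* 4.07 against 4.09. Other leading genes had a higher log2 fold change in the penis. *Srgn* had -0.26 in the limbs against 4.20 (difference 4.47, adjusted p = 3.46e-07). *Epyc* had -1.18 against 4.47 (difference 5.63, adjusted p = 5.36e-07). *Nell1* had -0.68 against 3.65 (difference 4.33, adjusted p = 8.20e-08). *Asz1*, the neighbour of *Wnt2*, had a UMI in 1 of 281 selected forelimb cells and 1 of 158 selected hindlimb cells with a *Wnt2* UMI.

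Of the 8 steroid genes, *Srd5a1* had a called difference, with a higher log2 fold change in the penis, and 0 had a lower one. *Hoxd13* had -2.10 in the limbs and 0.077 in the penis (difference 2.17, adjusted p = 1.21e-06). *Esr1* was lower in both, at -1.81 and -1.73, with a difference of 0.070 that was not called. *Pparg* was 1.40 in the limbs and -2.70 in the penis (difference -4.11, adjusted p = 3.34e-07), and *Dkk2* was 0.61 and -2.28 (difference -2.90, adjusted p = 1.43e-08). *Bmp6* was 0.23 and -3.19 (difference -3.43, adjusted p = 4.14e-07). These 3 genes were lower in the selected cells of the penis by more than 4-fold, while their log2 fold changes in the limbs were above 0. Among markers of other cell types, the 6 mural markers had a median log2 fold change of 0.80 in the limbs against -1.62 in the penis, whereas the endothelial, epithelial and leukocyte medians in the limbs were -1.33, -1.18 and -0.78. The limb libraries differed, with *Acta2* at 159 CPM in the selected forelimb cells against 42.2 CPM in the others, and at 8.35 against 25.1 CPM in the hindlimb. The part of these markers in the limb values was not tested.

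**Figure D5:**
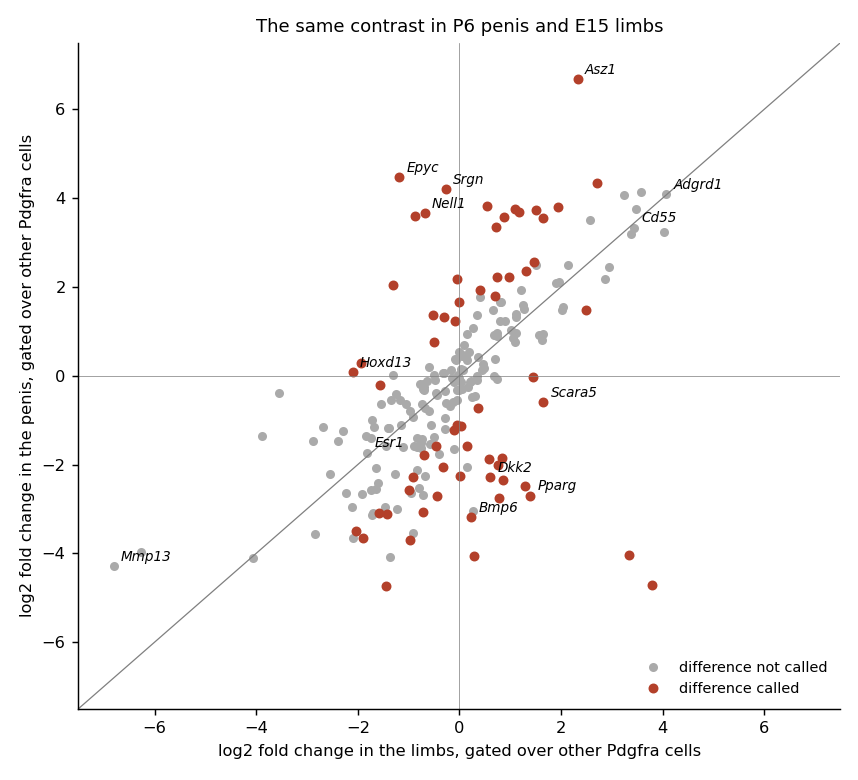
Log2 fold change of the selected cells over the other *Pdgfra* cells in the E15 limbs (horizontal, forelimb and hindlimb libraries together) and in the P6 penis (vertical, 3 libraries) for the named genes, with genes whose difference was called in red and the line of equal change in grey. *Adgrd1* and *Cd55* lie by the line, and *Epyc*, *Srgn* and *Nell1* lie high above it.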

How the data were processed

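Single cells of 3 P6 penis, 1 E15 forelimb and 1 E15 hindlimb libraries were made with a 10x 3′ v3.1 kit. The deposited files hold UMI counts per gene and barcode, which the authors made with Cell Ranger 7.0.0 on mm10 (submitters' processing notes and methods), with no normalization. All 32285 genes were read, and total UMIs per penis library were 70554067 to 100636762. Barcodes were kept at 500 to 6000 detected genes and at most 5% mitochondrial UMIs in the penis, and at 100 to 9000 (forelimb) or 9500 (hindlimb) genes and at most 10% in the limbs. Limb barcodes also needed log10 genes over log10 UMIs of at least 0.8, which was not asked of penis barcodes in the main setting. The study's limits, worded as reads per cell, were read as genes detected.

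UMIs were summed per library over selected and other *Pdgfra* cells. The 6 sums of the penis, or the 10 of all libraries, were fitted with edgeR 4.0.16 (limma 3.58.1, R 4.3.3) by its quasi-likelihood test, with TMM factors, the filterByExpr filter and the library as a block. The rule genes entered the library sizes and were then left out. Both sums of a library come from the same library, which is why the block was used, although deviations of the 2 sums correlated by 0.049, 0.042 and 0.15. On simulated counts of 16739 genes for the penis comparison, with 200 changed, 100% were recovered at log2 changes of 1.5 and 2, with 0 false calls. The simulation gave all genes the same spread (common dispersion 0.00096), held no library effect and changed no sparse genes. It therefore says nothing about sparse genes, genes that vary more between libraries, or folds near the limit. For the sums, thinning drew a fixed number of UMIs per cell without replacement. Thinned shares of cells are the expected values over such draws, computed without drawing. Clustering used scanpy 1.11.5 and leidenalg 0.10.2 with 30 principal components and 15 neighbours. Other steps ran in Python 3.11.15 (pandas 2.3.3, numpy 2.4.6, matplotlib 3.10.9 and scipy 1.17.1). Shared barcodes and cells with UMIs of another type were counted, and no doublet caller was run.

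The cells, the rule and the 37 gene lists were chosen with earlier results of these data known. Genes were named as the 14 called genes with the highest and the 10 with the lowest fold (mean of at least 20 CPM, same direction in 3 libraries, no Gm or Rik names), up to 4 called and 2 uncalled members per list, markers of other cell types and the Hox genes, and others are said to be named after their values were seen. *Ccl19*, listed under 2 gene entries, was left out. Some list members are not reported here and are not in the list counts, which leaves 2 glial markers. Alternatives were DESeq2 1.42.0, other scaling and filters, other marker numbers, other comparison cells, thinned cells, and leaving out libraries, dividing cells or cells with UMIs of another type.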

Additional observations from a re-analysis of the deposited data

Results flagged for a closer look

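The contrast between selected and other *Pdgfra* cells was tested for a difference between the P6 penis and the E15 limbs in 1 edgeR fit. Among the genes named in the report or below, 59 differed (30 with a higher and 29 with a lower log2 fold change in the penis), each with an adjusted p of at most 0.0068 from edgeR (quasi-likelihood, adjusted over all 18546 genes tested). Values below are penis minus limb differences of the log2 fold change. Tissue, age, library and the limits for keeping cells cannot be told apart in them. With cells thinned to 4000 UMIs, 144 of 364 tested calls with a higher value in the penis were called again, and 157 of 481 with a lower one. These counts are over all genes, and the 59 were not followed gene by gene through the alternatives.

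Among the genes with the highest folds in the penis, the difference was 5.63 for *Epyc*, 4.47 for *Schip1*, 4.47 for *Srgn*, 4.35 for *Asz1*, 4.33 for *Nell1* and 3.28 for *Sntg1*. It was smaller but in the same direction for other leading genes, at 2.68 for *Spock3*, 2.66 for *Gabrb2*, 2.21 for *Plat*, 1.85 for *Cyp1b1*, 1.63 for *Anxa3*, 2.62 for *Uchl1* and 1.90 for *Abcc9*. Proteoglycans beside *Epyc* had differences of 1.23 for *Kera*, 1.09 for *Lum* and 1.09 for *Dcn*. Immune and complement genes had 2.52 for *Cfb*, 1.87 for *Cxcl12*, 1.53 for *Il33* and 1.06 for *Serping1*. IGF genes went both ways, with 1.48 for *Igf2*, 1.67 for *Igfbp5* and -1.07 for *Igf1*.

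The steroid gene *Srd5a1* had a difference of 1.63. The Hox and other homeobox or Ebf factors had 3.34 for *Irx3*, 2.21 for *Hoxd12*, 2.17 for *Hoxd13*, 1.34 for *Hoxd10*, 2.21 for *Ebf3* and 1.32 for *Ebf2* on the higher side and -2.29 for *Meox2* on the lower side. The Ly6 gene *Ly6h* had a higher log2 fold change in the penis, with a difference of 1.27. A negative difference means a lower log2 fold change in the penis, which for many of these genes was below 0. Of the signaling genes, the difference was -3.55 for *Inhbb*, -3.43 for *Bmp6*, -2.90 for *Dkk2*, -2.48 for *Rspo2*, -1.48 for *Fst* and -1.46 for *Wif1*.

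For matrix genes the difference was -1.74 for *Col26a1*, -1.10 for *Col11a1*, -1.11 for *Cemip2*, -1.09 for *Vcan* and -1.01 for *Fbn1*, of which *Fbn1* rose less in the penis (1.48 against 2.49 in the limbs) and *Col26a1* was further below 0 there (-2.06 against -0.33). The retinoic acid binding proteins had -2.29 for *Crabp1* and -1.14 for *Crabp2*. Cartilage and bone genes had -3.30 for *Spp1*, -2.74 for *Acan*, -1.70 for *Col2a1* and -1.37 for *Sox9*. Mural genes had -3.79 for *Acta2* and -2.78 for *Rgs5*, with log2 fold changes of 1.29 and 0.77 over the limbs together, where the forelimb lay above and the hindlimb below its other *Pdgfra* cells for both genes. The fat regulator and other genes that were low in the penis had -4.11 for *Pparg*, -4.35 for *Myoc*, -1.58 for *Angpt2*, -1.75 for *Nrg1*, -1.16 for *Lpl* and -2.26 for *Scara5*. The neutrophil genes had the most extreme values, -8.49 for *S100a9* and -7.38 for *S100a8*, and their levels differed widely between the libraries. Their log2 fold changes in the limbs were 3.79 for *S100a9* and 3.34 for *S100a8*.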

How the results depend on the processing

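Of 833 genes called higher and 1286 called lower in the penis, leaving out 1 library gave 782 to 843 and 1114 to 1262, and DESeq2 gave 708 and 951. With 2 markers in place of 3, 802 genes were called lower. The counts of penis and limb differences (log2 fold change higher in the penis for 369 and lower for 493) were 229 and 213 with cells thinned to 4000 UMIs, and 242 and 326 when the rule read a random 50% of the UMIs and the sums held the rest, an alternative chosen after seeing the data, as was scaling by library totals. Without 1 library they were 280 to 343 and 360 to 486.

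The share of *Pdgfra* cells that were selected was 13.4% and 7.57% at 4000 and 2000 UMIs per cell, 27.9% with 2 markers and 13.6% with 4, and 18.5% to 19.1% without 1 library. The difference in dividing cells was below 0 in the 7 alternatives that changed 1 choice, and was -1.95 to -1.80 percentage points without 1 library. With 4 markers and unthinned cells together it was -0.243, and 0.106 and 0.647 without libraries 2 and 3. Without the replicate block that pairs the sums of a library, 838 genes were called higher and 1286 lower, and 322 and 415 for the penis and limb difference; it ended no call of a gene named in the text in the penis comparison.

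Among 174 named genes with a test in the penis comparison, 22 of 121 calls were lost in at least 1 alternative and 10 genes gained one. These counts do not cover the penis and limb differences. With 2 markers, 13 lost theirs (*Igf1*, *Klf4*, *Col15a1*, *Hoxa13*, *Rspo2*, *Nr3c2*, *Cdon*, *Boc*, *Stra6*, *Crabp2*, *Six2*, *Igfbp2* and *Tyrobp*), *Lpl* and *Igf1* lost theirs with comparison cells that had none of the markers, *Sfrp2* and *Klf4* with library totals, *Runx2*, *Pgr* and *Tyrobp* with DESeq2, *Ibsp*, *Tcf21*, *Meox1*, *Cldn5* and *Sfrp2* with thinned cells, *Sfrp2* also with 4 markers and with the rule on 50% of the UMIs, *Ebf2* without cells holding a UMI of another type, and *Cldn5* and *Tyrobp* without dividing cells. Calls were gained by *Fmod* (in 6 alternatives), *Axin2* (3), *Wnt11*, *Ebf1*, *Alpl*, *Scara5* (lower, with 4 markers), *Ly6h*, *Ly6d*, *Hbb-bs* and *Epcam*. The signs of *Cldn5* and *Tyrobp* reversed, to 0.19 and 0.29, without cells holding a UMI of another type, and that of *Lpl*, to 0.041, with 2 markers. Leaving out library 1 ended the calls of *Lpl* and *Cldn5*, and leaving out library 3 that of *Lpl*. Leaving out 1 library also moved the folds of these called genes by over 1.5 times without ending a call, with the log2 fold changes given here. Without library 1, *Sntg1* was 4.45, *Wnt10a* -2.48, *S100a9* -5.56 and *Ibsp* -3.15. Without library 2, *Wnt10a* was -3.90, *Ibsp* -4.97, *Prg4* -4.78, *Mmp13* -4.90, *Tcf21* -2.97, *Meox1* -2.71 and *Tyrobp* -2.12. Without library 3, *S100a9* was -3.64 and *Runx2* -2.39. The causes were not tested. Depth limits the share of selected cells, the sparse genes under 10 CPM, and the limb sums, which hold 380 and 224 selected cells in 1 library each.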
